A study of Homo sapiens with 15 samples.

Results

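Transcripts of 8 transcription factors of the paraxial mesoderm, TBX6, MSGN1, MEOX1, MEOX2, TCF15, FOXC1, FOXC2 and TBX18, were followed through an exposure of differentiating human embryonic stem cells to airborne particles. The members were chosen by name, with earlier results of these data known. All 8 were found by their Ensembl identifiers among the 60675 genes of the deposited tables. The libraries came from H9, an established line of human embryonic stem cells, on day 7 of differentiation toward bone. Particles were added from day 0, and all groups had the osteogenic supplements (ascorbic acid, β-glycerophosphate and vitamin D3) from day 5. Each of the 5 groups held 3 libraries. SRM_IC50 and SRM_IC25 received a NIST standard reference material of particulate matter at 5.9 and 0.003 µg/mL. FPM_IC50 and FPM_IC25 received fine particulate matter at 1.4 and 0.00062 µg/mL. UNT, the control, received the vehicle DMSO at 0.1%. The labels call these doses the concentrations that inhibit by 50% and 25%. All groups rest on 1 cell line, and the labels do not say that the replicates were separate cultures, so the p-values cover the spread between samples alone, and that spread may be technical.

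The paraxial mesoderm lies on either side of the neural tube and is laid down by cells that leave the primitive streak and the tailbud under WNT and FGF signals. It matures as the presomitic mesoderm, is cut into somites by a Notch-driven clock, and gives rise to vertebrae, ribs, skeletal muscle and dermis. In the mouse, Tbx6 and Msgn1 act early, in the presomitic mesoderm. Foxc1, Foxc2, Meox1, Meox2 and Tcf15 (also called paraxis) act in the forming and formed somite, and Tbx18 keeps the anterior compartment of each somite distinct. None of the genes is exclusive to this tissue. FOXC1 and FOXC2 are also expressed in neural crest and vessels, MEOX2 in vascular cells and TBX18 in the epicardium and mural cells.

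RefSeq (GRCh38.p14) held the 250 bases before the annotated start of 5 members, TBX6, MSGN1, MEOX2, FOXC1 and TBX18. The windows of FOXC1 and MSGN1 are shown because these genes had the highest and the lowest median FPKM of the members. Both lie on the + strand, at chr6:1609665-1609914 for FOXC1 and at chr2:17816210-17816459 for MSGN1. Capitals mark a CCAAT box in FOXC1, read there as ATTGG because it lies on the opposite strand, and the core of a TCF/LEF site, CTTTGA, in MSGN1.
FOXC1: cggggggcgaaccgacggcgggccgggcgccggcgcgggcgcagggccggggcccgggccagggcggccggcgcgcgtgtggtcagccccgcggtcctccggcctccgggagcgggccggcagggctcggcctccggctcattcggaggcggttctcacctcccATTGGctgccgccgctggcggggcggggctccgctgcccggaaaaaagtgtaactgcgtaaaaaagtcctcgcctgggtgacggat
MSGN1: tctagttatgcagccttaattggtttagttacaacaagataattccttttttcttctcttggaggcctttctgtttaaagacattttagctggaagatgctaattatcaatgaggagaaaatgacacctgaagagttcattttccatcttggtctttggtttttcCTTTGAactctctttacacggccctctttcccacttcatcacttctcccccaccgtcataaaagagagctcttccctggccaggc
The FOXC1 window was 76.8% G and C with 37 CpG dinucleotides, and the MSGN1 window 40.8% with 2, against medians of 58% and 11 over 35116 promoters. Searched on both strands, CCAAT was present in 32.0% of all promoters of this length, and among the 5 members also in MSGN1 and TBX18, and CTTTGA was present in 11.2%. Neither match in capitals overlapped another motif searched in its window. The site that TCF and LEF proteins bind in WNT signalling (CTTTGA) was found in MSGN1 alone among the 5 members, 85 bases before the start. The T-box site GGTGTGA was found in none of the 5 windows and in 2.76% of all promoters. The core of the site bound by the aryl hydrocarbon receptor, GCGTG, was found in FOXC1, MEOX2 and TBX6 and in 32.2% of all promoters. The other motifs were the GC box GGGCGG (FOXC1, MEOX2 and TBX18, 42.6% of all promoters), the E-box CANNTG (MSGN1, MEOX2 and TBX6, 61.8%) and the TATA box TATAAA (MEOX2, 10.7%). A match is a description of letters, not evidence of binding.

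Total counts were between 9.341 and 58.239 M (M, mega) per library, where a floor of 3 counts corresponds to 0.0515 to 0.321 CPM, and this covers counting error only. CPM are counts scaled to the library's total and by TMM, and replicates correlated at r of 0.982 to 0.994 in log2 CPM. Antisense genes, by their annotation, took a larger share of counts in the FPM libraries than elsewhere, at 1.21% ± 0.252 in FPM_IC50 and 1.07% ± 0.173 in FPM_IC25, against 0.303% ± 0.0156 in SRM_IC50, 0.2998% ± 0.00311 in SRM_IC25 and 0.282% ± 0.00768 in UNT (SD, n = 3 each). Its part in the FPM results below was not tested. Genes were called at an adjusted p under 0.05 from edgeR's quasi-likelihood test with Benjamini-Hochberg adjustment over the 19012 genes that passed a filter on low counts. Of the 8 members, 6 passed and 2, MEOX2 and MSGN1, did not. The samples are bulk RNA, so fewer cells of a type and less RNA per cell cannot be told apart. The exposures share the UNT libraries, so their differences from UNT are not independent of each other.

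Per length of transcript, the median over the 15 libraries was 4.80 FPKM for FOXC1, 3.23 for MEOX1, 2.08 for TCF15, 0.704 for FOXC2, 0.471 for TBX6, 0.0807 for TBX18, 0.0410 for MEOX2 and 0 for MSGN1. The mean FPKM of FOXC1 stood at percentile 56.5 of the genes tested, that of MEOX1 at 48.0, that of TBX6 at 14.9 and that of TBX18 at 1.69. In UNT the order was FOXC1 (5.03 ± 0.635 FPKM), MEOX1 (2.94 ± 0.312), TCF15 (1.79 ± 0.393), FOXC2 (0.618 ± 0.0928) and TBX6 (SD, n = 3), and the libraries of neighbours in this order overlapped only between FOXC2 and TBX6. In SRM_IC50, TCF15 stood first at 3.59 ± 1.33 FPKM, FOXC1 next at 2.70 ± 0.117, with libraries that overlapped those of TCF15, and MEOX1 after it at 1.73 ± 0.118.

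**Figure D1:**
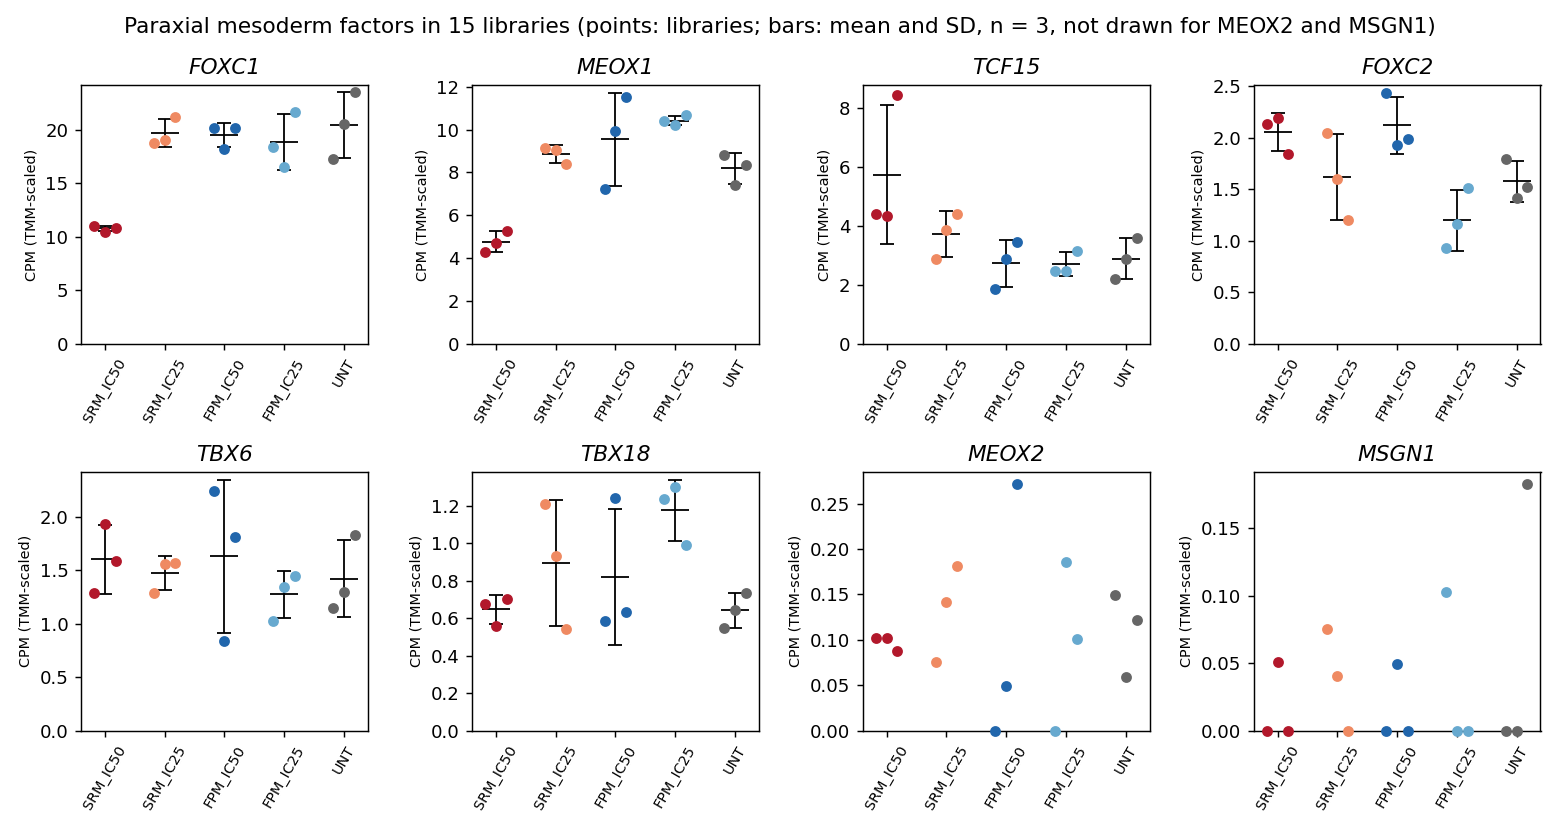
TMM-scaled CPM of each member (y axis, linear, from 0) in the 15 libraries by group (x axis). Points are libraries and bars the mean and SD of 3, left out for MEOX2 and MSGN1, which held at most 7 and 3 counts in a library. FOXC1 and MEOX1 sit lowest in SRM_IC50, with no library overlapping UNT, and TCF15 sits highest there with 1 library at 8.44 CPM.

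At SRM_IC50 the levels of FOXC1 and MEOX1 fell to 0.529 and 0.573 times those of UNT, and that of TCF15 rose to 1.93 times. These 3 of the 6 tested members were called there, where 17.6% of all tested genes were called, and 0 of 6 were called at each of the other 3 exposures.

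The early factors were scarce. MSGN1, a basic helix-loop-helix factor at chr2:17816496-17817101, had 9 counts in all 15 libraries together, at most 3 in one library, and 0 in 9 libraries. TBX6, the T-box factor that turns tailbud progenitors toward mesoderm in the mouse, had 474 counts over the 15 libraries. It was measured at 1.29, 1.93 and 1.58 CPM in SRM_IC50, at 1.29, 1.56 and 1.57 in SRM_IC25, at 2.24, 0.843 and 1.81 in FPM_IC50 and at 1.03, 1.35 and 1.45 in FPM_IC25, against 1.14, 1.29 and 1.83 in UNT. The groups overlapped throughout. Its log2 fold change from UNT was 0.16 at SRM_IC50 (95% interval -0.49 to 0.82, adjusted p = 0.802), and lay between -0.09 and 0.11 at the other exposures. TBX6 (chr16:30085793-30091887, - strand) ends 415 bases from PPP4C on the opposite strand, which had 1253 to 9244 counts in a library. The sources used here do not say whether strand was used in counting, so reads that run past either gene's end could fall on the other. Of 18 genes of the primitive streak and its posterior signals, 14 passed the filter, among them the streak factors EOMES and MIXL1, with at most 65 and 83 counts in a library. The 4 that failed were TBXT, the streak factor brachyury, with at most 20 counts in a library, MESP1 with at most 13, FGF4 with at most 24 and CDX4 with at most 10. MSGN1 and TBXT are both active in the youngest paraxial mesoderm. MSGN1 was at or near the floor in all groups. TBXT averaged from 0.129 ± 0.112 CPM in FPM_IC25 to 0.502 ± 0.0405 in UNT. The levels of the later factors are given as those of the genes, not of a tissue.

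FOXC1, a forkhead factor (chr6:1609972-1613897), had the highest median FPKM of the members and fell at the higher SRM dose. It was measured at 11.02, 10.5 and 10.8 CPM in SRM_IC50, at 18.8, 19.0 and 21.2 in SRM_IC25, at 20.2, 18.2 and 20.2 in FPM_IC50 and at 18.4, 16.5 and 21.7 in FPM_IC25, against 17.3, 20.5 and 23.5 in UNT. Every SRM_IC50 library lay below every library of the other 4 groups. The mean was 10.8 ± 0.269 CPM in SRM_IC50 against 20.4 ± 3.11 in UNT (SD, n = 3). The log2 fold change was -0.92 (SE 0.13), with an adjusted p of 6.72e-05 in edgeR's quasi-likelihood test. At the other 3 exposures FOXC1 stayed between -0.10 and -0.05 on the log2 scale with 95% intervals within -0.36 and 0.20.

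MEOX1, a homeobox factor needed for the somite's sclerotome in the mouse (chr17:43640388-43661954, - strand), fell at SRM_IC50 too. It was measured at 4.31, 4.68 and 5.28 CPM in SRM_IC50, at 9.16, 9.06 and 8.38 in SRM_IC25, at 7.21, 9.91 and 11.5 in FPM_IC50 and at 10.4, 10.2 and 10.7 in FPM_IC25, against 8.81, 7.40 and 8.35 in UNT. The 3 SRM_IC50 libraries were the lowest of all 15, and the 3 FPM_IC25 libraries lay above all 3 of UNT. The log2 fold change from UNT was -0.80 at SRM_IC50 (SE 0.15, adjusted p = 0.00126) and 0.35 at FPM_IC25 (SE 0.14, adjusted p = 0.131, not called). Its paralog MEOX2 (chr7:15611212-15686812, - strand) had 37 counts in all, at most 7 in a library and 0 in 2 libraries, so no difference was detectable at this depth.

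TCF15, a basic helix-loop-helix factor that makes somites epithelial in the mouse (chr20:603797-610398, - strand), rose at SRM_IC50. It was measured at 4.41, 4.33 and 8.44 CPM in SRM_IC50, at 2.88, 3.86 and 4.40 in SRM_IC25, at 1.85, 2.87 and 3.44 in FPM_IC50 and at 2.47, 2.46 and 3.16 in FPM_IC25, against 2.19, 2.88 and 3.60 in UNT. All SRM_IC50 libraries lay above all UNT libraries, and replicate 3, the shallowest of that group at 12.04 M counts, lay far above the other two. Its log2 fold change from UNT was 0.95 (95% interval 0.35 to 1.54, adjusted p = 0.0269). The call rested on single libraries: without SRM_IC50 replicate 3 the log2 fold change was 0.61 (adjusted p = 0.104), without UNT replicate 1 it was 0.77 (adjusted p = 0.107), and without UNT replicate 2 it was 0.95 (adjusted p = 0.0771). At SRM_IC25 the log2 fold change was 0.39 (95% interval -0.21 to 0.99, adjusted p = 0.443), and it was -0.06 at FPM_IC50 and -0.05 at FPM_IC25.

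FOXC2, the paralog of FOXC1 (chr16:86566829-86569728), was called at no exposure with edgeR. It was measured at 2.14, 2.19 and 1.85 CPM in SRM_IC50, at 2.04, 1.60 and 1.21 in SRM_IC25, at 2.44, 1.93 and 1.99 in FPM_IC50 and at 0.926, 1.16 and 1.51 in FPM_IC25, against 1.79, 1.41 and 1.52 in UNT. The libraries of both IC50 groups lay above those of UNT, by a log2 fold change of 0.39 at SRM_IC50 (95% interval -0.09 to 0.88, adjusted p = 0.289) and 0.41 at FPM_IC50 (95% interval -0.10 to 0.91, adjusted p = 0.328), and neither was called. An exon of FOXC2 overlaps FOXC2-AS1 on the opposite strand, which had 0 to 6 counts in a library. Whether strand was used in counting is not stated, so the FOXC2 values are uncertain by an unknown amount.

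TBX18, the T-box factor of the anterior somite (chr6:84687351-84764519, - strand), was near the limit of the test. It was measured at 0.678, 0.560 and 0.703 CPM in SRM_IC50, at 1.21, 0.931 and 0.543 in SRM_IC25, at 0.584, 1.24 and 0.634 in FPM_IC50 and at 1.23, 1.30 and 0.991 in FPM_IC25, against 0.547, 0.646 and 0.732 in UNT. The FPM_IC25 libraries lay above all UNT libraries, and the other exposures overlapped UNT. The log2 fold change was 0.83 at FPM_IC25 (95% interval 0.14 to 1.53, adjusted p = 0.115) and 0.01 at SRM_IC50 (95% interval -0.75 to 0.78, adjusted p = 0.999). TBX18-AS1, which lies within the body of TBX18 on the opposite strand, had 0 counts in all 15 libraries.

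At SRM_IC50 the libraries did not overlap UNT in 4 of the 6 tested members, FOXC1, MEOX1, TCF15 and FOXC2, against 29.7% of all tested genes. The median log2 fold change of the 6 members was 0.09, beside 0 over all tested genes. At SRM_IC25, 0 of 6 were called (4.37% of all tested genes), and 0 members had an unadjusted p under 0.05 (4265 of 19012 tested genes). At FPM_IC50, 0 of 6 were called (13.6% of all tested genes), with 0 at an unadjusted p under 0.05 (4584 of 19012 tested genes). There 1 member, FOXC2, had all its libraries above UNT (15.6% of all tested genes). At FPM_IC25, 0 of 6 were called (14.2% of all tested genes), and 2, MEOX1 and TBX18, had an unadjusted p under 0.05 (4792 of 19012 tested genes). Both had all their libraries above UNT (18.0% of all tested genes). DESeq2 also called 0 members at each of these 3 exposures, and limma on log2(FPKM + 1) called 1, MEOX1, at FPM_IC25. FOXC1, MEOX1 and TCF15 are among the 4239 tested genes that lack a neighbour on the other strand within 5 kb. A fit of those 4239 genes alone called 1 at FPM_IC50, 35 at FPM_IC25 and 1051 at SRM_IC50. Over all 19012 tested genes these counts were 2585, 2693 and 3337. A single test over all 5 groups called FOXC1 (adjusted p = 9.97e-05), MEOX1 (adjusted p = 0.000114) and TCF15 (adjusted p = 0.0232), where 40.8% of all tested genes were called. TCF15 was not called in that test without SRM_IC50 replicate 3.

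**Figure D2:**
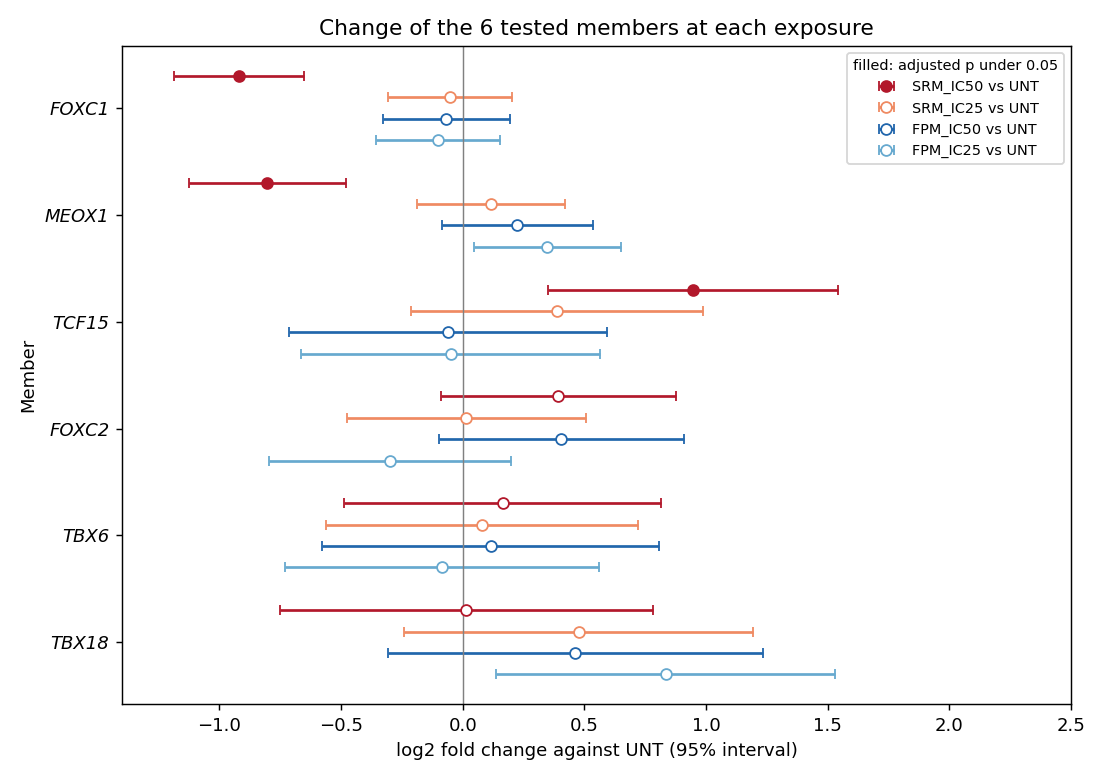
Log2 fold change from UNT (x axis) with its 95% interval for the 6 tested members (y axis), 1 line for each exposure. Filled points have an adjusted p under 0.05. The 3 filled points, FOXC1 at -0.92, MEOX1 at -0.80 and TCF15 at 0.95, all belong to SRM_IC50.

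Between the SRM doses, FOXC1 and MEOX1 were lower at SRM_IC50 than at SRM_IC25. The log2 difference was -0.87 for FOXC1 (SE 0.13, adjusted p = 8.8e-05) and -0.92 for MEOX1 (SE 0.15, adjusted p = 0.000268), and 26.9% of all tested genes were called. TCF15 differed by 0.56 (95% interval -0.01 to 1.13, adjusted p = 0.143), with libraries that overlapped. Between the FPM doses, 0 of 6 members were called with edgeR (0.0105% of all tested genes) and 0 with DESeq2. An unadjusted p under 0.05 was found for 1 member, FOXC2, and for 784 of 19012 tested genes. The FOXC2 libraries of FPM_IC50 all lay above those of FPM_IC25 (4.56% of all tested genes), by 0.70 on the log2 scale (95% interval 0.21 to 1.20, unadjusted p = 0.00869 and adjusted p = 0.843 with edgeR). The difference between the dose differences of the particles was tested after the values had been seen. It was -0.90 for FOXC1 (SE 0.18, adjusted p = 0.00258) and -0.80 for MEOX1 (SE 0.21, adjusted p = 0.0168), where 14.6% of all tested genes were called. For TCF15 it was 0.57 (95% interval -0.28 to 1.43, adjusted p = 0.403).

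At the IC50, 3 of the 6 tested members differed between the particles, which were given at different doses, 5.9 µg/mL of SRM and 1.4 µg/mL of FPM. SRM_IC50 against FPM_IC50 gave log2 differences of -0.85 for FOXC1 (SE 0.13, adjusted p = 5.4e-05), -1.03 for MEOX1 (SE 0.15, adjusted p = 5.15e-05) and 1.01 for TCF15 (SE 0.29, adjusted p = 0.0114), where 39.3% of all tested genes were called. TBX6 (0.05, 95% interval -0.63 to 0.73), FOXC2 (-0.01, 95% interval -0.50 to 0.48) and TBX18 (-0.45, 95% interval -1.21 to 0.31) were not called, with adjusted p of at least 0.351. Without FPM_IC50 replicate 1 the TCF15 difference was 0.82 (adjusted p = 0.0521). SRM_IC25 against FPM_IC25 called 0 of 6 members (10.5% of all tested genes), and DESeq2 called 0. Of the members, 0 had an unadjusted p under 0.05 (3707 of 19012 tested genes). However, every MEOX1 library of SRM_IC25 lay below those of FPM_IC25, which holds for 18.0% of all tested genes (log2 difference -0.23, 95% interval -0.53 to 0.06, adjusted p = 0.391).

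Genes of the signals that induce and pattern the paraxial mesoderm changed in both directions at SRM_IC50. Levels in this list and in those of the clock and the somite are those of the genes in bulk RNA, not of a tissue. These lists were written with earlier results of these data known. Of 18 genes of the primitive streak and its posterior signals, 14 were tested, 3 rose and 3 fell, with a median log2 fold change of 0.22. Beside this, 17.6% of all tested genes were called. The homeobox genes CDX2 and CDX1, which give posterior identity, fell by 2.08 (adjusted p = 5.95e-05) and 1.66 (adjusted p = 0.000559) on the log2 scale. SP5, a direct target of WNT signalling, rose by 1.45 (adjusted p = 3.76e-06) and the ligand WNT8A by 1.16 (adjusted p = 0.00555). SP5 averaged 72.8 ± 9.52 CPM in SRM_IC50 against 26.5 ± 2.70 in UNT (SD, n = 3).

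Of 15 genes of the segmentation clock and the somite boundary, 12 were tested, 3 rose and 5 fell at SRM_IC50, with a median of 0.03. Beside this, 17.6% of all tested genes were called. RIPPLY1, which ends TBX6 activity at the boundary in the mouse, averaged 0.236 ± 0.103 CPM in SRM_IC50 against 1.45 ± 0.373 in UNT, a log2 fold change of -2.70 (adjusted p = 0.00145). Its exons overlap an opposite gene, which makes its counts uncertain. The Notch target HEY1 fell by 1.00 (adjusted p = 2.63e-05). Enzymes of retinoic acid rose on both sides of its balance: CYP26A1, which degrades it, by 1.57 (adjusted p = 1.38e-07), and ALDH1A2, which makes it, by 0.91 (adjusted p = 0.0207). ALDH1A2 exons also overlap an opposite gene.

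Of 22 genes of the somite and its derivatives, 14 were tested, 3 rose and 4 fell at SRM_IC50, with a median of -0.32. Beside this, 17.6% of all tested genes were called. The 3 that rose were PAX3, a factor of the early somite and of muscle precursors, by 0.68 (adjusted p = 0.00184), TWIST1, a mesenchymal helix-loop-helix factor, by 0.49 (adjusted p = 0.00430), and FST, the activin antagonist follistatin, by 0.40 (adjusted p = 0.0164). Of the sclerotome, the skeletal part of the somite, PAX9 (-1.65, adjusted p = 0.0355) and PAX1 (-0.99, adjusted p = 0.0219) fell, and NKX3-2 was not called (-0.27, adjusted p = 0.485). EYA1, a transcriptional cofactor active in muscle precursors, fell by 1.17 (adjusted p = 4.28e-07). Exons of PAX9, EYA1 and TWIST1 overlap an opposite gene. Which cells held the PAX3 and TWIST1 transcripts cannot be told from bulk RNA. PAX9 was scarce, at 0.138 ± 0.0371 CPM in SRM_IC50 against 0.425 ± 0.0669 in UNT. Of the 4 factors that commit cells to muscle, MYF5, MYOD1 and MYOG were at or near the floor, with at most 2, 4 and 2 counts in a library. The fourth, MYF6, had at most 43 counts in a library, passed the filter and was not called, at 0.308 ± 0.0463 CPM in SRM_IC50 against 0.495 ± 0.263 in UNT (log2 fold change -0.63, adjusted p = 0.410).

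Fewer genes of the 3 lists were called at the other exposures. The share of all tested genes called was 17.6% at SRM_IC50, 4.37% at SRM_IC25, 13.6% at FPM_IC50 and 14.2% at FPM_IC25. At SRM_IC25, edgeR and DESeq2 each called 0 of the 14 streak, 12 clock and 14 somite genes tested. Of these, 1, 0 and 2 had an unadjusted p under 0.05 in edgeR (4265 of 19012 tested genes). At FPM_IC50, SP5 fell by 0.50 (adjusted p = 0.0460). At FPM_IC25, CYP26A1 fell by 0.65 (adjusted p = 0.000898). Of the somite list, 2 rose and 2 fell there, the largest being PAX1, which fell by 1.02 (adjusted p = 0.0193), and PRRX1, which rose by 0.68 (adjusted p = 0.00456).

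**Figure D3:**
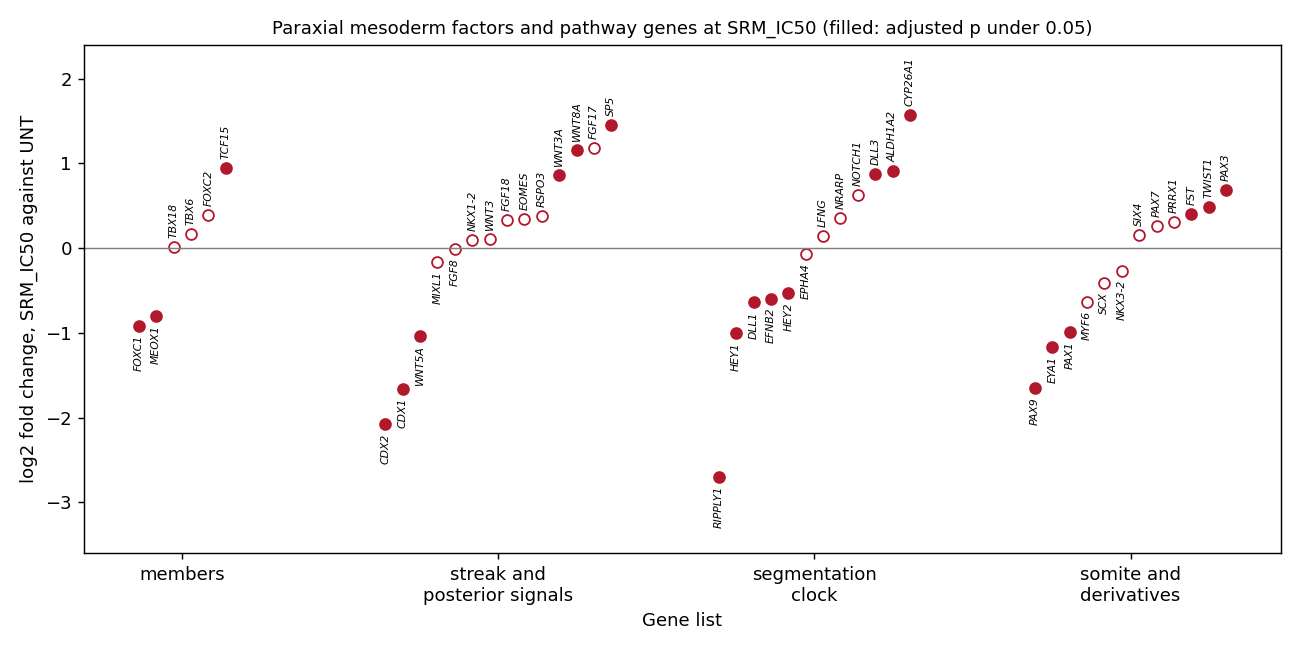
Log2 fold change of SRM_IC50 against UNT (y axis) for the 6 tested members and tested genes of 3 lists (x axis; genes not reported here are left out), sorted within each list. Filled points have an adjusted p under 0.05. Each list holds genes that rose and genes that fell, with RIPPLY1 at -2.70 and CYP26A1 at 1.57 as the lowest and the highest point.

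Markers of other cells moved at SRM_IC50 too, where 17.6% of all tested genes were called. The marker lists were also written with earlier results of these data known. At SRM_IC50, 7 of 8 pluripotency genes rose, and the summed level of the 8 was 2248 to 2736 CPM in SRM_IC50 against 1431 to 1557 in UNT. LIN28A, the 1 not called, held the largest part of this sum (mean 1136 CPM in SRM_IC50 against 953 in UNT). All 9 amnion and trophoblast genes fell, with a summed level of 261 to 319 CPM in SRM_IC50 against 1607 to 1937 in UNT. Of 11 tested genes of lateral plate, intermediate and cardiac mesoderm, 8 fell and 1 rose, with a summed level of 117 to 141 CPM in SRM_IC50 against 358 to 445 in UNT. HAND1 held the largest part of this sum in UNT (mean 34.4 CPM in SRM_IC50 against 211 in UNT). BMP4 (59.3 against 93.3) and TBX3 (12.4 against 53.1) came next there. Among 11 neural crest genes 4 rose and 3 fell, with a summed level of 900 to 963 CPM in SRM_IC50 against 893 to 923 in UNT. Among 5 tested endothelial genes 3 rose and 1 fell (90.9 to 126 CPM in SRM_IC50 against 45.0 to 60.6 in UNT). Most of this sum was KDR (mean 46.7 CPM in SRM_IC50 against 11.8 in UNT) and TEK (55.1 against 31.0). The gene that fell was CDH5 (3.65 against 5.69). PECAM1, EMCN and SOX17 of this list failed the filter on low counts, with at most 7, 5 and 5 counts in a library. Among 7 tested genes of epicardium and mural cells 1 rose and 1 fell (420 to 539 CPM in SRM_IC50 against 403 to 463 in UNT). Among 6 tested osteogenic genes 2 rose and 1 fell (942 to 1057 CPM in SRM_IC50 against 673 to 768 in UNT). No gene of these lists was at 0 in all 15 libraries, but some failed the filter on low counts. The part of these cells in the changes of FOXC1, MEOX1 and TCF15 was not tested.

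Genes whose log2 CPM followed a member most closely over the 15 libraries were sought among 12686 genes. The points share libraries, groups and depth, so the correlations are descriptions. FOXC1 was followed by CLDN4 (r = 0.965), CEBPA (r = 0.962) and RAB25 (r = 0.960), which fell at SRM_IC50 by 1.34, 2.49 and 1.38 on the log2 scale. MEOX1 was followed by COL16A1 (r = 0.974), ANXA8 (r = 0.969) and ALOX15 (r = 0.969), which fell by 0.79, 2.60 and 2.23. TCF15 was followed by TAGLN (r = 0.966), TENT5B (r = 0.959) and FDXR (r = 0.941), which rose by 0.59, 0.32 and 0.63. The closest genes of the uncalled members reached lower values, r = 0.817 for FOXC2 with LRRTM4 and r = 0.777 for TBX6 with TAFAZZIN. U2AF1, next for TBX6, has a near-identical copy and is uncertain, and exons of COL16A1, CEBPA, TAGLN and TAFAZZIN overlap an opposite gene.

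FOXC1 and FOXC2 each lie in a cluster of forkhead genes, and the protein-coding neighbours of all members within 500 kb were examined after the members' values had been seen. FOXF2, 214369 bases from FOXC1, averaged 0.337 ± 0.0717 CPM in SRM_IC50 against 0.76 ± 0.198 in UNT, and fell by 1.11 on the log2 scale (adjusted p = 0.0333), with exons that overlap an opposite gene. FOXL1, 6640 bases from FOXC2, averaged 1.82 ± 0.229 CPM in SRM_IC50 against 1.08 ± 0.193 in UNT and rose by 0.77 (adjusted p = 0.0300). FOXQ1 and FOXF1 were too low to test. The neighbours outside the family were not called: GMDS, next to FOXC1, differed by 0.25 (adjusted p = 0.228) and MTHFSD, next to FOXC2, by -0.12 (adjusted p = 0.600). Around the other members, called neighbours went with and against the member. Of all tested genes, 17.6% were called at SRM_IC50 against UNT. Near MEOX1, which fell, 4 of 16 tested neighbours rose and 2 fell, among them ETV4 (1.27, adjusted p = 3.07e-06) and MPP2 (0.78, adjusted p = 0.000749), which rose. Near TCF15, which rose, 1 of 13 rose and 2 fell, with ANGPT4 at -3.63 (adjusted p = 1.15e-06). Near TBX6, which was not called, 4 of 38 rose and 2 fell, near MSGN1 1 of 4 rose, near MEOX2 the 1 tested fell, and near TBX18 the 1 tested was not called. Exons of ETV4 overlap an opposite gene.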

How the data were processed

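Polyadenylated RNA was sequenced from 15 libraries with a directional kit, per the labels' protocols. The deposited tables hold whole-number read counts per gene and FPKM values. Per the submitters' processing notes, the authors used GRCh38, HISAT2 2.2.1, SAMtools 1.10, featureCounts from Subread 2.0.15, FastQC 0.11.7 and DESeq2; the sources used here do not give the annotation release, the strand setting or the treatment of multiply mapped reads. The deposited FPKM values equal those computed from the counts and gene lengths to within 4.99999e-07.

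Symbols came from a list of gene names (41209 genes with an approved symbol), and coordinates (1-based, GRCh38) from GENCODE release 29, on which 57055 genes were placed. The test was that of edgeR 4.0.16, run in R 4.3.3 (TMM, filterByExpr, robust quasi-likelihood fit of 5 group means to 15 libraries, Benjamini-Hochberg adjustment at 0.05 over 19012 genes). CPM are given as mean ± SD over 3 libraries, and log2 fold changes with a standard error (SE). All libraries were counted, since replicates of a group differed beyond sampling noise (lowest chi-square per gene 5.28). The procedure was tested on simulated data.

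The 8 members and the gene lists were chosen with earlier results of these data known. All members are named. Of the streak, clock and somite lists, up to 4 called genes with the largest change at SRM_IC50 and up to 2 at other exposures are named. Of the lists of other cells, KDR, TEK, HAND1, BMP4 and TBX3 were named for their part in a sum, and CDH5 because it fell. PAX3, TWIST1, FST, NKX3-2, MYF6, EOMES, MIXL1 and LIN28A were named besides, after their values were seen. So were genes that failed the filter on low counts (TBXT, MESP1, FGF4, CDX4, MYF5, MYOD1, MYOG, PECAM1, EMCN, SOX17). Some genes of the somite list count in its totals but are not reported here by name. Likeness was the Pearson correlation of log2 CPM (prior count 2) over 15 libraries, among genes with a mean of at least 1 CPM, for members with such a mean, which leaves out TBX18, MEOX2 and MSGN1; 3 genes per member were kept. Alternatives were DESeq2 1.42.0, its size factors, other filters, limma 3.58.1 on log2(FPKM + 1) and log2(FPKM + 0.1), the replicate number as a block, a GC correction, fewer groups, genes that lack a neighbour on the other strand within 5 kb, and leaving out each library; the contrast of dose differences was added after the data were seen.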

Additional observations from a re-analysis of the deposited data

Results flagged for a closer look

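The dose differences of the particles, IC50 minus IC25, differed between SRM and FPM in 2 of the 6 tested members, by an interaction test in edgeR. This test was added after the values had been seen, and it called 14.6% of all tested genes. For FOXC1 the log2 dose difference was -0.87 with SRM and 0.03 with FPM, a difference of -0.90 (adjusted p = 0.00258). For MEOX1 it was -0.92 with SRM and -0.12 with FPM, a difference of -0.80 (adjusted p = 0.0168). In both genes 3 of 3 SRM_IC50 libraries lay below 3 of 3 SRM_IC25 libraries, and the FPM doses overlapped. The share of all tested genes separated in this way is not given here, and 26.9% were called between the SRM doses. The doses behind the labels differ between the particles (5.9 and 0.003 µg/mL for SRM, 1.4 and 0.00062 µg/mL for FPM), so the particle and its dose range cannot be told apart.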

How the results depend on the processing

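The calls of FOXC1 and MEOX1 at SRM_IC50 against UNT held under all 19 alternatives of each, with log2 fold changes of -1.03 to -0.70 (adjusted p at most 0.00338) and -0.87 to -0.53 (adjusted p at most 0.0112). The TCF15 call held under 13 of 19, with a range of 0.61 to 1.14 (adjusted p 0.000586 to 0.107). Beside the single libraries named with its values, it was lost with limma on log2(FPKM + 1) and no FPKM filter (0.69, adjusted p = 0.0725), with only the 2 groups compared (0.94, adjusted p = 0.0901) and without the FPM libraries (0.94, adjusted p = 0.0512); the cause was not tested. At FPM_IC25 against UNT, 1 member was called with limma on log2(FPKM + 1) (MEOX1, adjusted p = 0.0492) and 1 in the fit of a replicate block with a GC correction (TBX18, log2 fold change 0.94, adjusted p = 0.0483). With limma and no FPKM filter, 1 member kept the difference of dose differences, FOXC1, and that of MEOX1 was -0.51 (adjusted p = 0.0878). Same-numbered libraries of different groups deviated together at a median r of 0.16 (-0.14 to 0.44 over 30 pairs). Other pairs did so at -0.078 (-0.44 to 0.27 over 60 pairs). Deviations were taken from each group's own mean, so the values of same-numbered and of other pairs are not independent. The main fit held no term for the replicate number. Over all genes, 3337 were called at SRM_IC50 against UNT in the main fit and 4390 with the replicate block. With the replicate block alone, 3 members were called at SRM_IC50 against UNT and 3 at SRM_IC50 against SRM_IC25, where TCF15 was added, as it also was with the GC correction, without and with the block. Differences that were not called changed sign in places, all at adjusted p of at least 0.753. With a GC correction, without and with the block, TBX6 at SRM_IC25 gave -0.14 and -0.13 and FOXC2 at SRM_IC25 -0.24 and -0.23; with both, TBX6 at FPM_IC50 gave -0.0056. With the block, TBX18 at SRM_IC50 gave -0.0092. Among genes that lack a neighbour on the other strand within 5 kb, TCF15 gave 0.0068 at FPM_IC50 and 0.021 at FPM_IC25, and FOXC1 0.0006 at FPM_IC50. With limma, FOXC1 at FPM_IC50 gave 0.025 on log2(FPKM + 1), with the filter and without it, and 0.0298 on log2(FPKM + 0.1), where TCF15 at FPM_IC25 gave 0.0032. Leaving out 1 library gave the following ranges of the log2 fold change from UNT, all across 0. For TBX6 it was -0.0042 to 0.39 at SRM_IC50, -0.064 to 0.31 at SRM_IC25, -0.19 to 0.51 at FPM_IC50 and -0.23 to 0.15 at FPM_IC25. For TCF15 it was -0.24 to 0.12 at FPM_IC50 and -0.22 to 0.15 at FPM_IC25. For FOXC1 it was -0.16 to 0.074 at SRM_IC25, -0.18 to 0.043 at FPM_IC50 and -0.23 to 0.026 at FPM_IC25. It was -0.13 to 0.16 for FOXC2 at SRM_IC25, and for TBX18 -0.10 to 0.12 at SRM_IC50 and -0.066 to 0.64 at FPM_IC50. Over all genes, the 831 called at SRM_IC25 became 0 with the GC correction, 0 with only the 2 groups compared, 0 without the FPM libraries, 57 with limma and no FPKM filter, 1881 with DESeq2, 2718 with the replicate block and 0 to 1153 without 1 library. Depth limits MEOX2 and MSGN1, which stayed at or near the floor.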
